A study of Solanum lycopersicum with 6 samples.

Results

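sly-miR10532 and sly-miR10537 are a pair of mature tomato microRNAs (miRNAs) whose names belong to the same late-numbered series. In libraries of green-stage fruit of tomato (Solanum lycopersicum) they differed widely in counts. They are 2 of the 137 mature miRNAs counted in the deposited table and were taken by name; since they were selected on their counts in these same drought and control libraries, their levels and their differences between drought and control are given as a description and no test is read from them. Fruit came from plants under drought stress (3 libraries), whose pots received liquid fertilizer diluted 500-fold 1 time per week after flowering, and from plants under the normal condition (3 libraries, called control), whose pots received the same diluted fertilizer and plain water on alternating days. Fertilizer and water supply thus differed together. The greenhouse was kept at 25 °C during the 12 h of light and at 20 °C in the dark, and both groups had received distilled water alone from potting to flowering. The labels name neither the cultivar nor the age of the plants or fruit, and they leave unsaid if replicate libraries stem from different plants, so the spread between libraries may be technical.

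A plant miRNA is cut from a hairpin precursor by a Dicer-like enzyme, and 1 strand of the resulting duplex is loaded into an Argonaute protein, where it guides the cleavage or translational repression of mRNAs with a matching site. Conserved families such as miR159, which targets GAMYB-like transcription factors, and miR166, which targets HD-ZIP III transcription factors, are usually among the abundant miRNAs of plant tissues. For miR10532 and miR10537 no target is named here, and each is listed as a single mature entry, without a second arm. The tables used here hold miRNA counts and no mRNA, so neither a target's level nor the markers of fruit tissue could be looked up.

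Total counts over all listed miRNAs ran from 430732 to 468711 in drought libraries and from 644434 to 749332 in control libraries. Drought libraries thus held fewer miRNA counts, and raw counts are read below only beside shares and scaled values. Drought library 2 stood apart in its scaling factor (1.352 by the trimmed mean of M-values, TMM, against 0.848 to 1.003 in the other libraries), so that each of its CPM values (counts per 1000000 of the TMM-scaled total) stands lower, relative to the other libraries, than its share does. The kit ligates adapters to both RNA ends and takes up some ends more readily than others, so ranks and shares describe the reads of a library and not the molecules in the fruit.

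miR10532 was among the miRNAs with the highest counts in the libraries of both groups, and its share of the counts was higher in drought fruit. The entry sly-miR10532 had counts of 68960, 41581 and 47255 in drought libraries 1, 2 and 3, against 45745, 27394 and 31755 in control libraries 1, 2 and 3. As a share of all miRNA counts this was 15.6%, 8.87% and 11.0% in drought libraries, against 6.91%, 4.25% and 4.24% in control libraries. Drought library 1 was the highest of the 6 and control library 1 the highest of its group, and the lowest drought share lay above the highest control share. The mean share was 11.8% ± 3.43 in drought and 5.13% ± 1.54 in control (SD, n = 3 each), a ratio of 2.30. Relative to the counts left after the 10 most abundant other entries were removed, miR10532 made up 30.9% ± 3.49 in drought and 20.3% ± 4.31 in control (SD, n = 3 each), and the ratio was 1.52, so its size depended on the abundant entries it was set against.

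These are bulk libraries of fruit, in which a change in the cells that make a miRNA and a change in its amount per cell cannot be told apart. The counting error behind the shares was small. The exact 95% binomial interval (Clopper-Pearson) ran from 15.5% to 15.7% in drought library 1 and from 8.79% to 8.95% in drought library 2. In control library 1 it ran from 6.85% to 6.98%. PCR copies are not marked in these libraries, so such intervals cover counting error only. The share of miR10532 varied by 29.0% of its mean (coefficient of variation) among drought libraries and by 30.0% among control libraries, while counting alone gives 0.444% and 0.544%, so the spread between libraries of a group was far above the counting error.

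miR10537 was a mid-ranked entry, and its share of the counts was lower in drought fruit. The entry sly-miR10537 had counts of 130, 286 and 174 in drought libraries 1, 2 and 3, against 543, 409 and 546 in control libraries 1, 2 and 3. As a share this was 0.0293%, 0.0610% and 0.0404% in drought libraries, against 0.0821%, 0.0635% and 0.0729% in control libraries. All drought shares lay below all control shares, but drought library 2 came close to control library 2, with exact 95% intervals of 0.0542% to 0.0685% in drought library 2 and 0.0575% to 0.0699% in control library 2. The mean share was 0.0436% ± 0.0161 in drought and 0.0728% ± 0.00930 in control (SD, n = 3 each), a ratio of 0.599, or 0.419 with the 10 most abundant other entries removed from the total. Counting alone gives a coefficient of variation of 7.42% in drought and 4.51% in control, against an observed 36.9% and 12.8%.

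Of the 99 miRNAs with enough counts to test, 25.3% had drought shares all above the control shares, as miR10532 did, and 16.2% had drought shares all below, as miR10537 did. A separation of the groups was therefore a common outcome in these libraries.

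**Figure D1:**
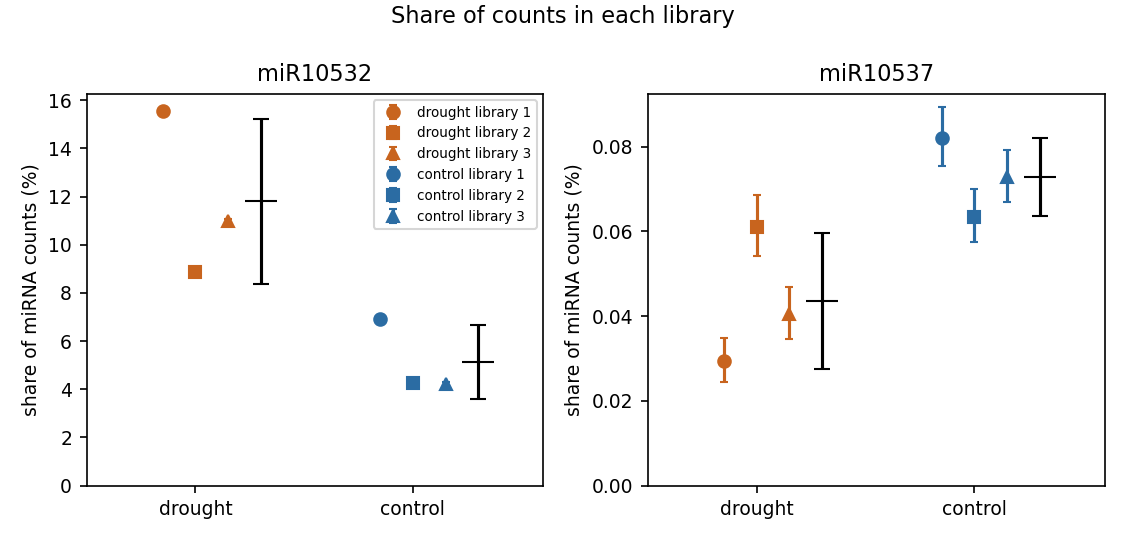
Share of all listed miRNA counts (%, linear axis from 0) taken by miR10532 (left) and miR10537 (right) in each drought and control library; coloured bars are exact 95% binomial intervals, some smaller than the marker, and black bars are the mean ± SD of 3 libraries. Drought shares of miR10532 lie above the control shares, led by drought library 1 at 15.6%, and drought shares of miR10537 lie below them, with drought library 2 at 0.0610% close to control library 2 at 0.0635%.

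In rank, miR10532 was 1st, 3rd and 2nd in drought libraries 1, 2 and 3, against 4th, 8th and 7th in control libraries 1, 2 and 3. By mean share it was 2nd in drought, after miR159, and 6th in control. No other entry of its numbered series came near the top. miR10537 ranked 59th, 45th and 52nd in drought libraries, against 43rd, 45th and 44th in control libraries, among 117 to 123 entries with a count in drought and 118 to 122 in control. It kept nearly the same rank in the control libraries and was 14 places lower in drought library 1 than in drought library 2.

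Set beside its neighbours in the order of mean share over all 6 libraries, miR10532 was 4th, below miR162, a regulator of a Dicer-like mRNA, and miR166a. In drought, miR10532 (11.8% ± 3.43) and miR166a (10.2% ± 0.891) differed by less than their spread. Spread, for a difference between miRNAs here and below, means the larger of their SDs. miR10532 was the higher of the pair in 2 of 3 drought libraries. In control, miR166a stood at 8.19% ± 1.33 and miR10532 was the higher in 1 of 3 libraries. miR162 took 6.70% ± 3.36 in drought and 16.0% ± 4.90 in control, so that miR10532 exceeded it in 3 of 3 drought libraries and in 0 of 3 control libraries. miR396b, which targets growth-regulating factors, came next at 5.34% ± 1.20 in drought and 6.76% ± 2.13 in control, where its difference from miR10532 was smaller than the spread. miR7981e followed, at 6.90% ± 2.13 in drought and 3.27% ± 1.02 in control, below miR10532 in all 6 libraries.

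The neighbours of miR10537, which was 48th in that order, were miR7981c and miR319b above it and miR10533 and miR394-5p below it. In control, miR10537 exceeded each of these 4 in 3 of 3 libraries. In drought it exceeded miR7981c and miR10533 in 1 of 3 libraries, and miR319b and miR394-5p in 0 of 3. miR10533, from the same numbered series, took 0.0486% ± 0.0101 in drought and 0.0523% ± 0.0126 in control, so that its drought share differed from that of miR10537 by less than the spread. miR319b, of a family that targets TCP transcription factors, took 0.0754% ± 0.0187 in drought and 0.0515% ± 0.0143 in control. miR394-5p, a regulator of an F-box protein mRNA, took 0.0843% ± 0.0706 in drought and 0.0158% ± 0.00517 in control.

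**Figure D2:**
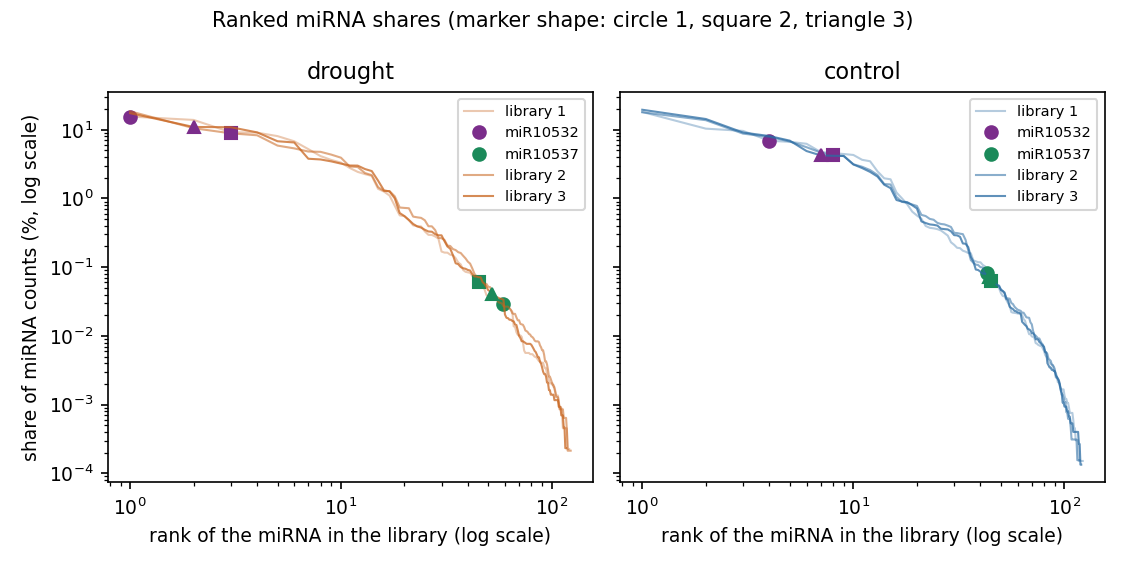
Share of miRNA counts (%, log scale) against rank in the library (log scale) for drought (left) and control (right) libraries; lines are the 3 libraries of a group and markers place miR10532 (purple) and miR10537 (green). miR10532 sits at ranks 1 to 3 in drought and 4 to 8 in control, and miR10537 at ranks 45 to 59 in drought and 43 to 45 in control.

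On the TMM scale, with factors taken over the 99 tested miRNAs, the separation of miR10532 was not complete. Its levels were 183619, 65654 and 110484 CPM in drought libraries 1, 2 and 3, against 76073, 42381 and 44007 CPM in control libraries 1, 2 and 3. Drought library 2 lay below control library 1, so the groups overlapped. They did not overlap in shares or in the authors' deposited CPM values (72553 CPM in drought library 2 and 65476 CPM in control library 1). The deposited values match TMM factors taken over all listed miRNAs, 1.223 for drought library 2 and 1.056 for control library 1. Over the tested miRNAs the factors were 1.352 and 0.909, so the overlap depended on the low-count filter. The mean was 119919 ± 59546 CPM in drought and 54154 ± 19000 CPM in control (SD, n = 3 each). An edgeR quasi-likelihood fit of the whole table put the log2 fold change at 1.15 ± 0.44 (SE). Without drought library 1, the log2 fold change was 0.76 ± 0.40.

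miR10537 was separated on the TMM scale as well, with 346, 452 and 407 CPM in drought libraries 1, 2 and 3, against 903, 633 and 757 CPM in control libraries 1, 2 and 3. On this scale 19.2% of tested miRNAs had all drought libraries below all control libraries, and 18.2% had them above. The mean of miR10537 was 402 ± 52.9 CPM in drought and 764 ± 135 CPM in control (SD, n = 3 each), and the fitted log2 fold change was -0.93 ± 0.34 (SE). The coefficient of variation among drought libraries was 13.2% on the TMM scale, against 36.9% in shares. Without drought library 2, the log2 fold change was -1.17 ± 0.44, and without drought library 1 it was -0.77 ± 0.43.

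The count of called members differed between the authors' table and the fit made here. In the authors' deposited table both members had a false discovery rate under 0.05, where 24.8% of 129 entries did (14.0% higher and 10.9% lower in drought), with log2 fold changes of 1.19 for miR10532 and -0.85 for miR10537. In the edgeR quasi-likelihood fit 0 of the 2 had an adjusted p under 0.05, where 20.2% of the 99 tested miRNAs did (9.09% higher and 11.1% lower in drought). Both had an unadjusted p under 0.05 in that fit, as 34.3% of the 99 did. DESeq2 called 0 of the 2, where it called 26.5% of the 98 miRNAs to which it gave an adjusted p. Since the members were taken with these counts known, nothing is read from any of these calls. Without drought library 2, the edgeR fit called both members and 41 of 101 tested miRNAs in all, against 20 of 99 with all libraries. The fits without any other single library called neither member, and 9 to 19 miRNAs in all. Among the 99 log2 fold changes, that of miR10532 was 17th from the highest and that of miR10537 18th from the lowest, so neither was extreme.

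**Figure D3:**
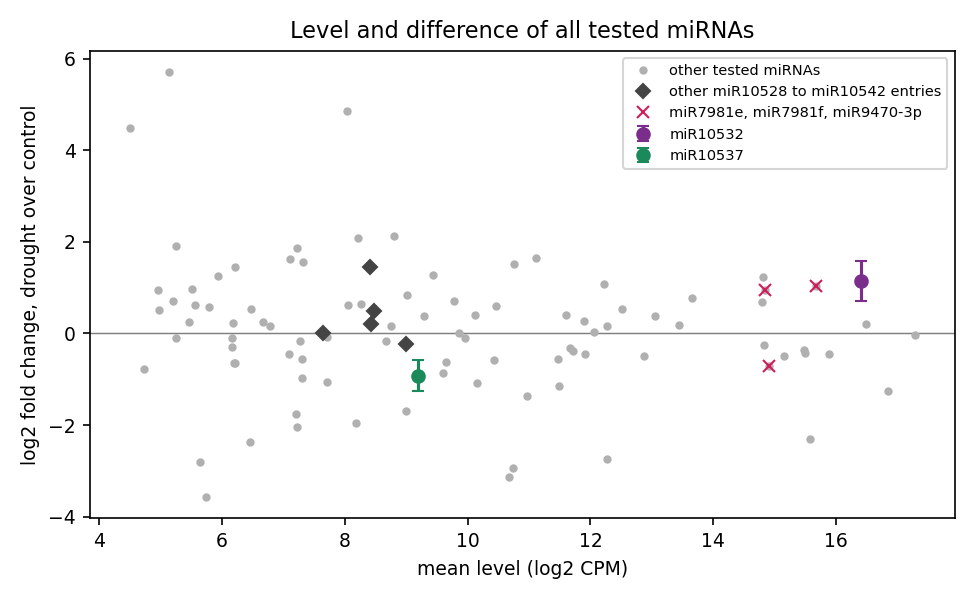
Log2 fold change of drought over control against mean level (log2 CPM) for the 99 tested miRNAs; bars on the coloured points are the SE from the edgeR fit. miR10532 lies at the abundant end at 1.15 and miR10537 in the middle of the range at -0.93, and the other tested entries of their numbered series (diamonds) lie between -0.24 and 1.44.

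The balance of the pair within a library, which no scaling can change, was tilted toward miR10532 in drought. Drought libraries 1, 2 and 3 held 530, 145 and 272 counts of miR10532 for each count of miR10537, against 84.2, 67.0 and 58.2 in control libraries 1, 2 and 3. The lowest drought ratio was above the highest control ratio. This follows from the shares, which were separated in opposite directions, and adds nothing to them. The drought ratios were far more spread. On the log2 scale the ratio averaged 8.11 ± 0.934 in drought and 6.11 ± 0.270 in control (SD, n = 3 each), a difference of 1.999. Leaving out single libraries gave differences from 1.53 without drought library 1 to 2.46 without drought library 2.

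The miRNA whose pattern over the 6 libraries was most like that of miR10532 was miR7981e, and the likeness was the closest of any pair of tested miRNAs. Likeness was measured as the root mean square difference between log2 CPM values, each centred on its mean over the 6 libraries. It was 0.0892 for miR10532 and miR7981e, the smallest of 4851 pairs among the 99 tested miRNAs, whose median was 0.902. Abundant entries carry less counting error, which favours small values, and the lowest count of miR7981e in any library was 16685. Drought libraries 1, 2 and 3 held 1.72, 1.84 and 1.61 counts of miR10532 per count of miR7981e, against 1.56, 1.64 and 1.53 in control libraries 1, 2 and 3. The ratio thus stayed between 1.53 and 1.84 while the share of miR10532 itself ran from 4.24% to 15.6%. The ratio to miR7981f was less steady: drought libraries 1, 2 and 3 held 2.98, 4.06 and 2.90 counts of miR10532 per count of miR7981f, against 2.78, 2.62 and 2.67 in control libraries 1, 2 and 3, so that drought library 2 lay outside the range of the others.

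miR7981f was the second most alike, at 0.212, and miR482e-5p, the less abundant arm of a precursor in a family that targets NB-LRR resistance genes, the third, at 0.320. The log2 fold change was 1.03 ± 0.45 for miR7981e, 0.95 ± 0.48 for miR7981f and 1.51 ± 0.46 for miR482e-5p (SE). These are given as a description because the 3 were chosen for their pattern over the same libraries. In CPM, drought library 2 lay below control library 1 for miR7981e (35674.5 against 48816.5) and miR7981f (16165.1 against 27379.2), so their groups overlapped. For miR482e-5p it lay just above (1313.67 against 1295.45). miR10532, miR7981e and miR7981f together took 29.9%, 15.9% and 21.6% of the counts in drought libraries 1, 2 and 3, against 13.8%, 8.46% and 8.59% in control libraries 1, 2 and 3. In the RefSeq gene table of assembly SLM_r2.1, the precursors of the 3 lie on separate chromosomes. The sources used here do not say how reads that match several miRNAs were counted, and the mature sequences were not analysed here, so shared reads and separate RNAs with a like pattern cannot be told apart.

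For miR10537 the most alike were miR319a at 0.260, miR482c at 0.279 and miR9470-3p at 0.290, against a median of 0.796 over all 98 other tested miRNAs. miR10532, at 1.14, was 76th in that order. All 3 were, like miR10537, lowest in drought library 1 and highest in control library 1. miR319a had 463, 993 and 718 CPM in drought libraries 1, 2 and 3, against 2082, 1071 and 1466 CPM in control libraries 1, 2 and 3. Its log2 fold change was -1.09 ± 0.42 (SE), that of miR482c -0.57 ± 0.31 and that of miR9470-3p -0.71 ± 0.39, again as a description of miRNAs chosen for their pattern.

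**Figure D4:**
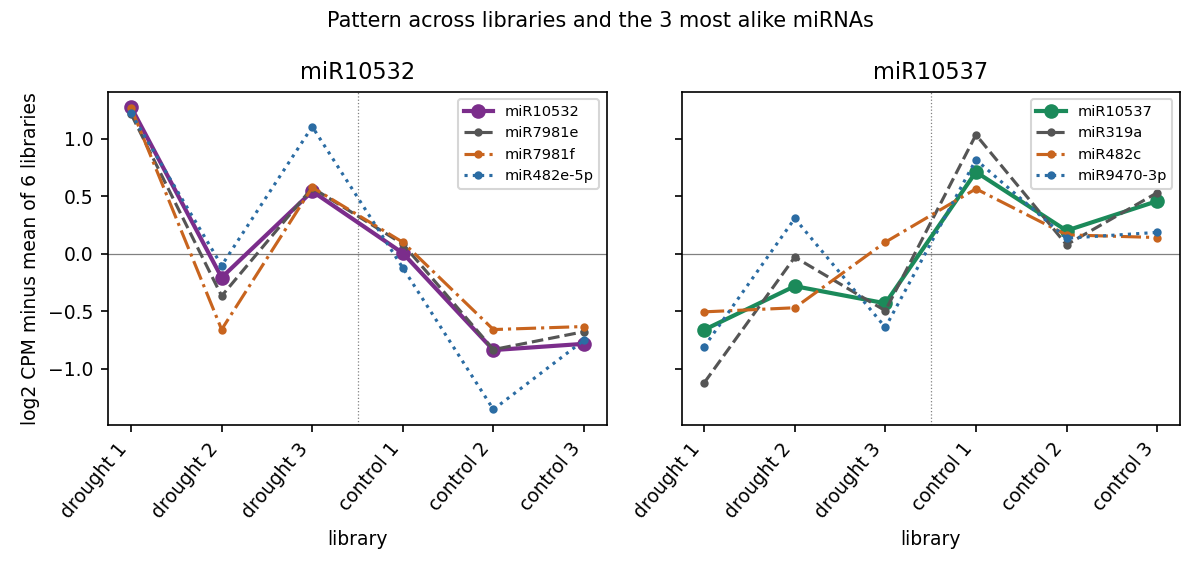
Log2 CPM minus the mean of the 6 libraries (TMM scale) for miR10532 (left) and miR10537 (right) with the 3 most alike miRNAs of each; lines only join the points of 1 miRNA. miR10532, miR7981e and miR7981f share their highest value in drought library 1 and low values in control libraries 2 and 3. miR7981f was as low in drought library 2 (-0.659) as in control library 2 (-0.659). miR10537 and its 3 most alike miRNAs share their lowest value in drought library 1 and their highest in control library 1.

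miR9470-3p is also the neighbour of miR10537 on the chromosome. In the gene table of assembly SLM_r2.1 the precursors MIR9470 and MIR10537 both lie inside the span of the lncRNA gene LOC104648595, with no other miRNA precursor in it. Of 101 miRNA precursors in that table, 20.8% lie inside the span of a lncRNA gene. Strand is not given there, and positions are left out because the sources used here do not name the build behind the counts. Their abundances were unequal: drought libraries 1, 2 and 3 held 47.0, 78.2 and 45.0 counts of miR9470-3p per count of miR10537, against 55.7, 49.5 and 42.9 in control libraries 1, 2 and 3. Apart from drought library 2 the ratio lay between 42.9 and 55.7 in both groups. In likeness of pattern miR10537 and miR9470-3p were 129th of the 4851 pairs, after miR10537 and miR319a at 81st. A common origin of the neighbouring precursors was not tested.

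The other arm, miR9470-5p, was rarer than miR10537, with 46, 43 and 63 counts in drought libraries against 70, 120 and 114 in control libraries, and a log2 fold change of -0.45 ± 0.44 (SE; edgeR adjusted p = 0.459). MIR10532 lies in no other gene of that table. Its nearest neighbours are the protein-coding genes LOC101247053 and LOC101246748, to which the table gives no name, and no other miRNA precursor stands beside it.

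**Figure D5:**
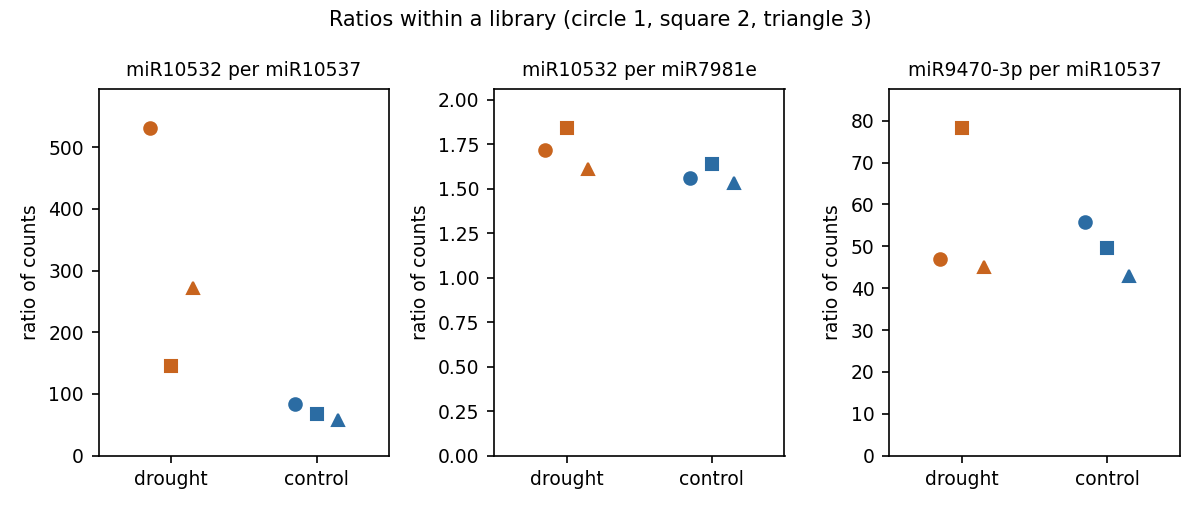
Ratios of counts within each library (linear axes from 0) for drought and control, with 1 marker per library. miR10532 per miR10537 runs from 145 to 530 in drought and from 58.2 to 84.2 in control, miR10532 per miR7981e stays between 1.53 and 1.84, and miR9470-3p per miR10537 stays between 42.9 and 55.7 except for drought library 2 at 78.2.

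Within the series of names from miR10528 to miR10542, miR10532 was the most abundant in both groups, while miR10537 was 5th by mean share in drought and 2nd in control. In drought, miR10528 (0.0622% ± 0.0855), miR10533 (0.0486% ± 0.0101) and miR10538 (0.0443% ± 0.0133) had mean shares above the 0.0436% ± 0.0161 of miR10537 (SD, n = 3). Each difference was smaller than the larger SD of that miRNA and miR10537. At least 1 of them had more counts than miR10537 in each drought library. The table holds 16 entries of this series, and miR10532 took from 94.8% to 98.8% of their summed counts in each library. The other 14 without miR10532 and miR10537 summed to between 0.153% and 0.335% of all counts in drought libraries and between 0.144% and 0.158% in control libraries. Of these 14, 5 had enough counts to test, 9 did not, and 2 entries among these 9, miR10535b and miR10541, were at 0 in all libraries, which allows a share of up to 8.83e-05% over the 6 libraries together (counting error only). In the edgeR fit 0 of the 5 passed, where 20.2% of all tested miRNAs did, and 0 had an unadjusted p under 0.05, where 34.3% did. DESeq2 called 0 of the 4 to which it gave an adjusted p, where it called 26.5% of all such miRNAs, and it gave none to miR10528. Their median log2 fold change was 0.20, beside 0.16 over all tested miRNAs.

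The tested entries of that series had log2 fold changes of both signs. miR10533 stood at 465 ± 100 CPM in drought and 548 ± 137 CPM in control (log2 fold change -0.24 ± 0.36, SE). miR10528 stood at 491 ± 606 CPM in drought and 181 ± 51.2 CPM in control (1.44 ± 0.80, SE), where drought library 2 held 754 counts and drought libraries 1 and 3 held 60 and 52. miR10538 stood at 413 ± 28.6 CPM in drought and 295 ± 53.0 CPM in control (0.49 ± 0.36, SE).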

How the data were processed

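Small RNA of green-stage fruit was sequenced after extraction with RNAiso Plus and Fruit-mate, DNase treatment and column purification, and 240 ng of total RNA went into each NEBNext small RNA library, per the labels' protocols. The authors deposited 1 table of 137 mature miRNAs with, per the file headers, a whole-number total count and a CPM value for each of 6 libraries. Each deposited CPM column divides its library's counts by a single constant other than the plain total and was handled as a score. To rounding, that constant matches the library's total scaled by a TMM factor taken over all listed miRNAs without a low-count filter. These factors were 0.8795, 1.223 and 1.013 in drought libraries 1, 2 and 3, against 1.056, 0.9616 and 0.9043 in control libraries 1, 2 and 3. The authors' deposited fold change, log2 fold change and p-value columns compare drought with control, and the sources used here name neither their test nor the aligner, mismatch setting, miRNA database or genome build.

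Shares are counts divided by the sum of all listed miRNAs in the library, so they move with the abundant entries. Counts of the whole table were fitted in R 4.3.3 by the quasi-likelihood method of edgeR 4.0.16 (robust, group as the only term, TMM scaling) after filterByExpr (minimum count 10, minimum total count 15) left 99 miRNAs; both members passed the filter. The Benjamini-Hochberg threshold was 0.05, and the SE is the size of the log2 fold change divided by the square root of F. CPM values are per 1000000 TMM-scaled counts, and log2 CPM used a prior count of 2. The fit was tested on simulated data. DESeq2 1.42.0 was an alternative. No 2 libraries agreed within sampling noise (chi-square per degree of freedom of 50.1 or more). Members, lists and settings were chosen with earlier results of these data known. Other miRNAs were named by rule: the 2 above and 2 below each member in mean share, the 3 most alike in pattern, those ranking first in a library, and the leading entries of the numbered series. miR9470-5p, miR10528, miR10538, miR10535b and miR10541 were added after their values were seen.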

Additional observations from a re-analysis of the deposited data

How the results depend on the processing

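Over 12 other settings (3 scalings, no filter, DESeq2, the replicate block and leaving out each library), the log2 fold change of miR10532 stayed positive, from 0.76 to 1.47, and that of miR10537 negative, from -1.17 to -0.70 (-1.17 to -0.77 over the settings without 1 library). The edgeR call took in miR10532 in 3 settings (library totals alone, upper-quartile scaling, without drought library 2) and miR10537 in 1 (without drought library 2). Those settings called 27 of 99, 26 of 99 and 41 of 101 miRNAs in all, against 20 of 99 in the main fit. Nothing is read from the calls of the members. With upper-quartile scaling the value of miR10537 moved to -0.70; the median of all tested miRNAs was then 0.40, against 0.16 with TMM. The number of called miRNAs, 20, was 9 to 41 with 1 library left out: 9 without control library 2, 13 without control library 3 and 41 without drought library 2. Library totals alone called 16 higher and 11 lower in drought, and upper-quartile scaling 16 and 10, against 9 and 11 with TMM. With the replicate number as a block 12 were called, and the log2 fold changes were 1.08 for miR10532 and -0.92 for miR10537. For same-numbered libraries the correlation of deviations across miRNAs was 0.101, -0.245 and 0.00813 for numbers 1, 2 and 3. Differently numbered pairs ran from -0.282 to 0.295. With so few libraries these values cannot show if same-numbered libraries share a plant, day or batch. With the 10 most abundant other entries taken out of the denominator, the mean share of miR10532 was 30.9% in drought and 20.3% in control, and that of miR10537 0.122% in drought and 0.292% in control; a smaller denominator raises every share. With 1 library left out, mean shares of miR10532 ran from 9.92% to 13.3% in drought and from 4.24% to 5.58% in control, and those of miR10537 from 0.0349% to 0.0507% in drought and from 0.0682% to 0.0775% in control. The difference in the log2 ratio of the pair, whose leave-out settings were chosen after seeing the data, ran from 1.53 to 2.46. At 130 to 286 counts in drought, single-library values of miR10537 carry a mean counting error of 7.42% (coefficient of variation). The observed value was 36.9% for the shares of the drought libraries. Group means of miR10537 rest on 3 libraries each.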
